A study of Rattus norvegicus with 12 samples.

Results

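The cornified envelope and skin barrier genes are the genes that keratinocytes use to build the outermost, dead layer of the epidermis. They were taken by name as every gene whose symbol starts with Lce or Sprr followed by a digit, together with 30 further symbols of envelope proteins, crosslinking enzymes, proteases, and barrier lipid enzymes. Of the 25620 genes in the count table, 39 carried such a name, and the same 39 were found among the 25524 genes of the FPKM table. No row was named Lor or Hrnr, and loricrin was listed under the symbol Loricrin. The rule used names only and no measured value, but the names were chosen with earlier results of these data known.

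The data were RNA sequencing of wound tissue from male SD rats, 8 to 12 weeks old by the study's methods, made diabetic with streptozotocin (STZ), each with a circular punch wound through the whole skin of the back. The control wounds received saline, d-SMG wounds the dried mucus gel of the snail *A. fulica*, s-GAG wounds the sulfated glycosaminoglycan purified from that mucus (labelled GAG), and Alg wounds a commercial alginate dressing. Each of the 4 treatments was sampled on day 3, 7, and 14 by 1 library, 12 libraries in all, and the number of rats behind a library was not given in the sources used here. All groups were therefore diabetic and wounded, and healthy skin was not analysed here. A difference between 2 libraries had no replicate check, and it compared those libraries and not the conditions.

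In the epidermis, keratinocytes leave the basal layer, switch from keratins 5 and 14 to keratins 1 and 10, and finally replace their plasma membrane with a cornified envelope. Transglutaminases crosslink precursors such as involucrin, loricrin, the small proline-rich (SPRR) proteins, and the late cornified envelope (LCE) proteins, while filaggrin and its relatives bundle keratin and are later cut into water-binding amino acids. Lipids made by ceramide synthases, elongases, and lipoxygenases are secreted between the cells and coupled to the envelope, and the whole program has to be rebuilt when a wound is covered by new epidermis.

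Of the 39 genes, 18 lay on chromosome 2 of the rat, and in the RefSeq gene table (assembly GRCr8) 17 of these could be ordered within the epidermal differentiation complex. The order ran from Loricrin through the Sprr genes and Ivl to the Lce genes, with Kprp among them, and on to Crnn, Flg, and Rptn. Rptn was coding gene number 50 of the block when Loricrin was number 1. Promoters of 6 genes of this block, picked with their values known, are shown. They are 3 genes of the loricrin and SPRR end (Loricrin, Sprr1a, Ivl) and 3 of the filaggrin end (Crnn, Flg, Rptn). Each runs 5′ to 3′ on the strand of the gene, from 250 bases before the start to 50 bases after it, as given by RefSeq on GRCr8. Capitals mark TGANTCA, the letters searched for the AP-1 site (N is any base, and the motif reads the same on both strands).
Loricrin: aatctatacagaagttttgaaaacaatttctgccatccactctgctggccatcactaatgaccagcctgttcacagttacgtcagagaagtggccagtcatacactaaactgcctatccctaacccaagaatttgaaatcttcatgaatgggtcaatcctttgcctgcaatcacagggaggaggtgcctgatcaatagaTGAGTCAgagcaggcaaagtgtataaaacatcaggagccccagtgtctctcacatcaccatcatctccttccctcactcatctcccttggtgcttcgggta
Sprr1a: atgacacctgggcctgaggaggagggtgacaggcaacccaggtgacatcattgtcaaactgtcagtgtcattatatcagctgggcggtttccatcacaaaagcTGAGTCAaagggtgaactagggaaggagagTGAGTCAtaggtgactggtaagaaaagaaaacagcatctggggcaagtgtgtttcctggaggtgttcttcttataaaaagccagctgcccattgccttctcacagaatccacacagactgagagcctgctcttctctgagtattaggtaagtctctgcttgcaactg
Ivl: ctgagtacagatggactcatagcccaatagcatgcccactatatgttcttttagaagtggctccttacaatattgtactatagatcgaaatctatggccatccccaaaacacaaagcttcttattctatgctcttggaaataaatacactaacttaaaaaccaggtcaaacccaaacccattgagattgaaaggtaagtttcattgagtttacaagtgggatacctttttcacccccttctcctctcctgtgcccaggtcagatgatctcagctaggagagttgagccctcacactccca
Crnn: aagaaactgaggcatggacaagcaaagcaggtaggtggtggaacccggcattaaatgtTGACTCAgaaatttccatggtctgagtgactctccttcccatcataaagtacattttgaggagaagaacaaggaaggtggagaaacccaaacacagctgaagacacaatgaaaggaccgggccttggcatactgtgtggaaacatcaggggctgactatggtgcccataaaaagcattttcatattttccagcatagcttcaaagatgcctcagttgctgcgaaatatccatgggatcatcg
Flg: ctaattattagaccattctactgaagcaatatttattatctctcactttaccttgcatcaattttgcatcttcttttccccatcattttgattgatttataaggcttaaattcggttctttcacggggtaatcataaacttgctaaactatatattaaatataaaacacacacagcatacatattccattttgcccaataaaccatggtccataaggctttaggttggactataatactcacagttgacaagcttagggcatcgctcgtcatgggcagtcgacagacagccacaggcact
Rptn: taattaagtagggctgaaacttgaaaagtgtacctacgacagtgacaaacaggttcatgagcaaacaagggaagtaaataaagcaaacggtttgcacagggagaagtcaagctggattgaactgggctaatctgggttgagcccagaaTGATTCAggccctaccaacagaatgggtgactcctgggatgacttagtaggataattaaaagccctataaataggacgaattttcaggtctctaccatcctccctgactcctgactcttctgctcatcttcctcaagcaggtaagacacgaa
The windows are chr2:180256523-180256822, minus strand, for Loricrin, chr2:180752576-180752875, minus strand, for Sprr1a, and chr2:180846529-180846828, minus strand, for Ivl. Those of the filaggrin end are chr2:181429231-181429530, plus strand, for Crnn, chr2:181583551-181583850, plus strand, for Flg, and chr2:181743213-181743512, plus strand, for Rptn. The capitals start at position -51 from the start in Loricrin, at -147 and -117 in Sprr1a, at -192 in Crnn, and at -102 in Rptn, and the windows of Ivl and Flg hold none. Of the 34 members with a promoter in the table, 7 (20.6%) held TGANTCA, namely Crnn, Dmkn, Krtdap, Loricrin, Rptn, Sprr1a, and Sprr1b, beside 7.33% of all 27457 promoters. TATAAA on the gene's own strand was in 10 members (29.4%), Loricrin, Sprr1a, Flg, and Rptn included, beside 9.08% of all promoters. The letters AACNGGTT, searched on both strands for the grainyhead-like factors, were in Kprp, Rptn, and Tgm5 (8.82%, beside 1.97%), and CACCC, searched on both strands for the Krüppel-like factors, was in 26 members (76.5%, beside 55.1%). These matches describe the letters in the windows and are not sites that were measured. Whether they relate to the expression values below was not tested. Lipn, Sprr3, Flg2, Lce1l, and Pnpla1 had no entry.

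All libraries held keratinocyte RNA, but in very different amounts. The reads on genes ranged from 13748887 to 38302461. The basal keratins Krt5 and Krt14 together gave 4283, 3452, and 3767 CPM in the control, 30.1, 6978, and 14848 in d-SMG, 8271, 12350.2, and 27968 in s-GAG, and 7459.6, 11878, and 11055 in Alg on day 3, 7, and 14, respectively, where CPM are reads scaled to a common depth after normalization by the trimmed mean of M-values (TMM). The d-SMG library of day 3 stood apart with 361 Krt5 and Krt14 reads beside 50959 to 485033 in the other 11 libraries. In the same library the summed level of 13 skeletal muscle markers was 260600 CPM, beside 6344 to 155478 CPM elsewhere. The suprabasal marker Krt10 gave 233, 25.9, and 2317 CPM in the control, 2.16, 88.9, and 25.4 in d-SMG, 146, 106, and 121 in s-GAG, and 86.3, 140.1, and 1772 in Alg, highest in the control and Alg libraries of day 14. The 7 suprabasal markers found summed to 544, 114, and 4815 CPM in the control and 6.66, 328, and 204 in d-SMG. They summed to 573, 567, and 364 CPM in s-GAG and 381, 609, and 3756 in Alg. Krt1, Krt77, and Krt78 were also highest in the control of day 14. Dsg1 and Dsc1 were highest in Alg and Krt2 in s-GAG on that day. In d-SMG, Dsg1 gave 93.0 CPM on day 7 and 125.5 on day 14. The hair follicle list (17 genes, all in the table) summed to 34.00, 89.4, and 2640.5 CPM in the control, 26.6, 3179.9, and 4468 in d-SMG, 10853, 8499, and 6163 in s-GAG, and 3197, 469, and 45054 in Alg, and its highest value was in Alg on day 14. Tchh alone made up 58.4 to 87.8% of this sum in 11 libraries and 24.1% in s-GAG on day 14, and of the 17 genes 11 were highest in Alg on day 14 and 6 in s-GAG on day 14. Of the 3 keratins listed for oral and other squamous epithelium, Krt4 and Krt13 had at most 7 and 19 reads in any library, and Krt76 had 8 to 207. The s-GAG library of day 14 also stood apart, with 11.3% of its counted reads on the longest 25% of genes with at least 1000 reads (length taken from the ratio of counts to FPKM) beside 18.2 to 28.5% in the other libraries. In bulk tissue, fewer cells of a type and less RNA per cell cannot be told apart.

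Per length of the gene, Elovl4 and Sbsn were the most abundant members and most LCE and SPRR genes were scarce. The median FPKM (fragments scaled to gene length and depth, as deposited) over the 12 libraries was 139 for Elovl4 and 132 for Sbsn, and 47.96 for Calml5, 37.9 for Krtdap, and 26.2 for Sprr1a. Between libraries these levels varied widely, from 0.51 to 536 FPKM for Elovl4 and from 1.6 to 325 FPKM for Sbsn. Reads in all 12 libraries were found for 19 members. Sprr3 had 1 read in total, Lce3e 13, Sprr2f 16, Lce3d 19, and Sprr2d 27, and nothing is read from their differences. A fold change was computed where 2 libraries together held at least 10 reads of a gene. By this minimum 20 members entered all 13 comparisons of 2 libraries, and Sprr3, Sprr2f, and Lce3e entered none. The LCE and SPRR genes are close copies of each other, and how reads shared between copies were counted was not given in the sources used here, so the split between single LCE or SPRR genes is uncertain.

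**Figure D1:**
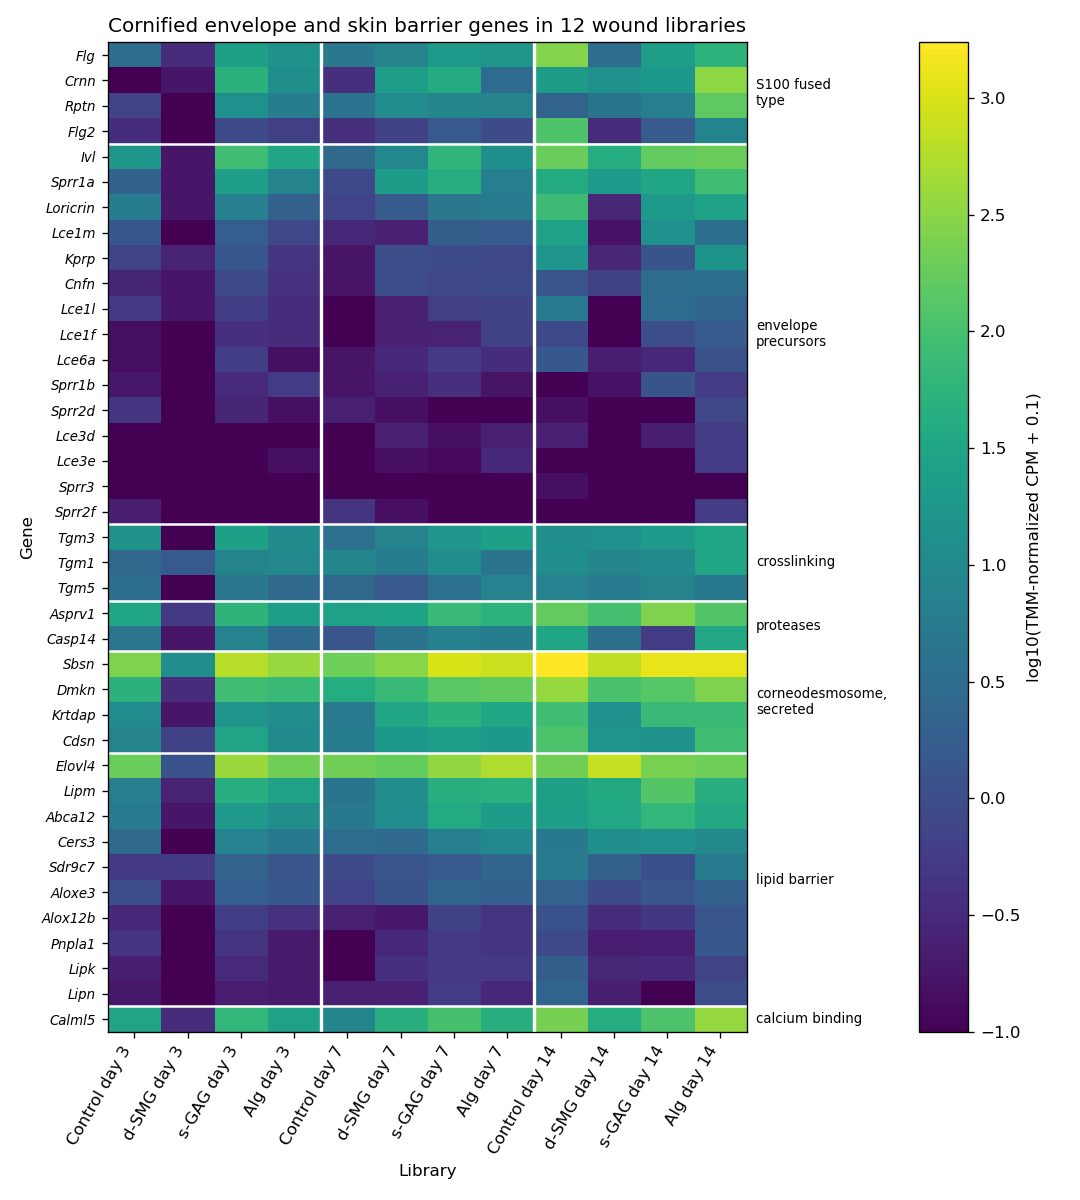
TMM-normalized CPM of the 39 genes (rows, grouped by role) in the 12 libraries (columns, by day), as log10(CPM + 0.1) on the colour scale. The d-SMG library of day 3 is dark in nearly all rows, the control and Alg libraries of day 14 hold the highest value of 13 and 17 of the 38 genes that could be ranked, and Crnn and Rptn differ from Flg and Flg2 in which library is brightest.

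The S100 fused type proteins and their relatives split into a pair highest in the control on day 14 and a pair highest in Alg on day 14. Flg (filaggrin, which bundles keratin and yields water-binding amino acids) gave 3.15, 4.95, and 281 CPM in the control, 0.2497, 7.65, and 3.13 in d-SMG, 24.6, 19.05, and 23.2 in s-GAG, and 14.3, 17.6, and 53.8 in Alg on day 3, 7, and 14. Flg2, a filaggrin relative, gave 0.255, 0.271, and 116 CPM in the control, 0, 0.574, and 0.2503 in d-SMG, 0.794, 1.400, and 1.56 in s-GAG, and 0.543, 0.862, and 8.01 in Alg. For both, the control of day 14 was the highest of the 12 libraries and Alg on day 14 the next highest, with no other library above 24.6 CPM of Flg or 1.56 CPM of Flg2. Crnn (cornulin, a protein of stressed and of oral squamous epithelium) gave 0, 0.271, and 21.3 CPM in the control, 0.0832, 22.9, and 13.8 in d-SMG, 53.3, 39.95, and 17.7 in s-GAG, and 12.8, 2.98, and 329 in Alg. Rptn (repetin, an envelope precursor of the fused type) gave 0.638, 4.06, and 2.13 CPM in the control, 0, 11.05, and 4.26 in d-SMG, 13.5, 8.45, and 6.36 in s-GAG, and 6.17, 7.89, and 155 in Alg. In Alg on day 14 Crnn and Rptn were more than in any other library, and the control of day 14 was above none of the 3 dressed libraries of that day in Rptn.

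Set against each other per length, Rptn was below Flg, and Crnn below Flg2, in the control of day 14. In every other library with reads of both genes, Rptn was above Flg and Crnn above Flg2. The FPKM of Rptn was 0.0476 times that of Flg in the control of day 14 and 18.2 times that of Flg in Alg on day 14. In the other 10 libraries this ratio lay between 1.23 and 9.11, apart from the d-SMG library of day 3, where Rptn had 0 reads and Flg 3. The FPKM of Crnn was 0.761 times that of Flg2 in the control of day 14. It was 3.67 to 290 times that of Flg2 in the other libraries with reads of both. The value of 3.67, in the control of day 7, rests on 4 reads of each gene. Against Loricrin, which is in neither pair, the FPKM of Crnn was 0.2202 times in the control of day 14. It was 60.9 times that of Loricrin in d-SMG, 0.773 times in s-GAG, and 9.87 times in Alg on the same day, with 3 Loricrin reads behind the d-SMG value. The hair follicle marker Tchh (trichohyalin), a further gene of the fused type, gave 19.9, 67.1, and 2318 CPM in the control, 20.6, 2306, and 3167 in d-SMG, 7985, 6541, and 1486 in s-GAG, and 1957, 328, and 35410 in Alg, and it too was highest in Alg on day 14. Whether hair follicle tissue had a part in the Crnn and Rptn values was not tested.

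**Figure D2:**
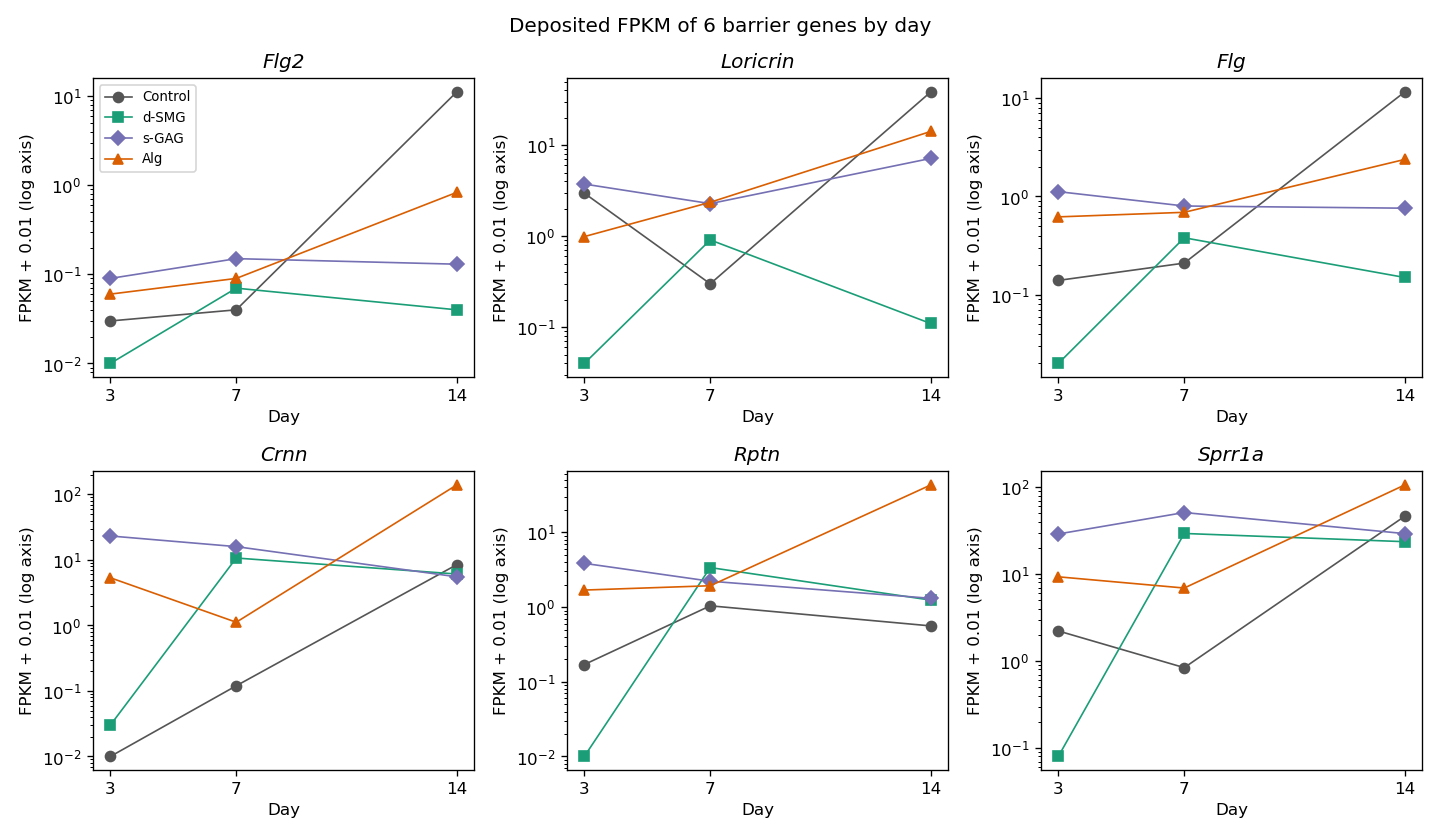
Deposited FPKM + 0.01 on log axes against the day for 6 members, 1 point for each library and 1 line for each treatment. Flg2, Loricrin, and Flg (upper row) are highest in the control on day 14, at 11.1, 38.4, and 11.6 FPKM, and Crnn, Rptn, and Sprr1a (lower row) in Alg on day 14, at 139, 43.1, and 106 FPKM.

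Among the envelope precursors, Loricrin, Lce1m, and Lce1l were highest in the control of day 14, and Ivl and Sprr1a were equally high or higher in Alg. Loricrin, the main protein of the mature envelope, gave 6.21, 0.6097, and 79.2 CPM in the control, 0.0832, 1.58, and 0.188 in d-SMG, 7.03, 4.66, and 18.8 in s-GAG, and 1.93, 5.17, and 27.3 in Alg on day 3, 7, and 14, and only 3 reads were left in d-SMG on day 14. Lce1m, a late envelope protein, gave 1.36, 0.203, and 26.4 CPM in the control, 0, 0.143, and 0.0626 in d-SMG, 1.76, 1.66, and 13.4 in s-GAG, and 0.691, 1.52, and 3.404 in Alg, with 1 read in d-SMG on day 14. Lce1l, of the same family, had 10, 0, and 107 reads in the control, 1, 3, and 0 in d-SMG, 9, 21, and 45 in s-GAG, and 5, 9, and 35 in Alg. Ivl (involucrin, an early scaffold of the envelope) gave 17.3, 2.78, and 187 CPM in the control, 0.0832, 9.47, and 42.2 in d-SMG, 85.3, 61.9, and 163 in s-GAG, and 31.5, 12.9, and 196 in Alg. In Ivl the control, s-GAG, and Alg libraries of day 14 lay close together and d-SMG lay below them. Sprr1a, a crossbridging protein that is also a gene of injured epithelium, gave 1.96, 0.745, and 40.3 CPM in the control, 0.0832, 21.8, and 18.5 in d-SMG, 23.02, 44.3, and 32.5 in s-GAG, and 7.75, 6.43, and 86.4 in Alg, and on day 7 it was higher in all 3 dressed libraries than in the control.

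The remaining precursors were scarce. Kprp (keratinocyte proline-rich protein) had 15, 1, and 347 reads in the control, 2, 20, and 3 in d-SMG, 23, 32, and 18 in s-GAG, and 7, 11, and 242 in Alg, and only the control and Alg of day 14 were above 32 reads. Cnfn (cornifelin) had 4, 1, and 25 reads in the control, 1, 19, and 9 in d-SMG, 15, 27, and 47 in s-GAG, and 6, 12, and 57 in Alg. Lce1f had 0 to 25 reads, Lce6a 0 to 28 reads, and Sprr1b 0 to 18 reads in a library, and the highest were Alg on day 14, the control on day 14, and s-GAG on day 14, respectively.

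The transglutaminases did not share the peak of Flg and Loricrin in the control of day 14, and the 2 proteases differed from each other in s-GAG on day 14. Tgm1, the membrane-bound transglutaminase of the envelope, gave 2.59, 8.81, and 12.02 CPM in the control, 1.498, 5.93, and 8.32 in d-SMG, 7.65, 11.8, and 10.3 in s-GAG, and 9.53, 4.24, and 31.3 in Alg on day 3, 7, and 14. Tgm3 (active in the hair follicle too) gave 14.5, 3.79, and 12.8 CPM in the control, 0, 7.699, and 13.5 in d-SMG, 24.1, 16.1, and 19.8 in s-GAG, and 10.7, 24.5, and 30.7 in Alg, and Tgm5 lay between 0 and 7.86 CPM. The d-SMG library of day 3 had 0 reads of Tgm3 and Tgm5 but 18 reads of Tgm1. Asprv1, the skin aspartic protease that processes filaggrin, gave 31.96, 26.01, and 163 CPM in the control, 0.416, 28.4, and 96.9 in d-SMG, 56.1, 74.4, and 261 in s-GAG, and 23.7, 55.4, and 122 in Alg and was highest in s-GAG on day 14. Casp14, a caspase that takes part in filaggrin breakdown, gave 4.46, 1.22, and 32.7 CPM in the control, 0.0832, 4.21, and 3.63 in d-SMG, 7.65, 7.18, and 0.455 in s-GAG, and 2.72, 6.17, and 35.2 in Alg. In s-GAG on day 14 Casp14 had 7 reads, while Asprv1 had 4026 reads in the same library.

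The corneodesmosome and secreted suprabasal genes carried most of the reads. Sbsn (suprabasin) alone had 169609 of the members' reads over the 12 libraries, and gave 259, 198, and 1727 CPM in the control, 11.9, 306, and 673 in d-SMG, 604, 996, and 1255 in s-GAG, and 377, 787, and 1201 in Alg. Dmkn (dermokine) gave 52.3, 41.9, and 366 CPM in the control, 0.2497, 71.6, and 105 in d-SMG, 87.2, 144, and 129.7 in s-GAG, and 74.05, 157, and 264 in Alg. In both, s-GAG and Alg were above the control on day 3 and 7. Krtdap (keratinocyte differentiation-associated protein) gave 11.1, 5.28, and 87.4 CPM in the control, 0.0832, 30.9, and 13.8 in d-SMG, 16.1, 52.7, and 71.04 in s-GAG, and 11.7, 32.6, and 71.3 in Alg. Cdsn, the corneodesmosin that holds dead cells together, gave 7.65, 6.23, and 115 CPM in the control, 0.583, 17.9, and 16.6 in d-SMG, 29.2, 23.7, and 15.1 in s-GAG, and 10.2, 17.8, and 88.2 in Alg. All 4 were highest in the control of day 14 and lowest in d-SMG on day 3, and in Krtdap and Cdsn the d-SMG library of day 14 was below that of day 7.

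The more abundant lipid genes did not share this order. Elovl4, which makes the very long fatty acids of barrier ceramides, gave 188, 210.1, and 209 CPM in the control, 1.08, 171, and 730.5 in d-SMG, 402, 359, and 243 in s-GAG, and 204, 547, and 199 in Alg, and it was the only member that was highest in d-SMG on day 14. Outside d-SMG on day 3 its lowest level was 171 CPM. Abca12, the lipid carrier of the secreted granules, gave 5.398, 5.08, and 22.4 CPM in the control, 0.0832, 11.6, and 34.9 in d-SMG, 18.5, 38.4, and 63.2 in s-GAG, and 12.2, 21.5, and 36.1 in Alg. Lipm, a lipase of differentiating keratinocytes, gave 6.42, 4.34, and 25.9 CPM in the control, 0.166, 11.7, and 37.6 in d-SMG, 44.6, 46.3, and 125 in s-GAG, and 27.1, 47.9, and 44.6 in Alg. Cers3, the barrier ceramide synthase, gave 2.85, 3.05, and 5.09 CPM in the control, 0, 2.73, and 12.7 in d-SMG, 7.43, 6.57, and 14.03 in s-GAG, and 5.04, 9.28, and 9.896 in Alg. The latter 3 were highest in s-GAG on day 14, and in the control they were not above the dressed libraries on that day. The sebaceous gland list (9 genes found) summed to 298, 225, and 324 CPM in the control and 64.9, 167, and 698 in d-SMG. It summed to 356, 402, and 1067 CPM in s-GAG and 202, 535, and 267 in Alg. Whether sebaceous tissue had a part in the values of the lipid genes was not tested. The lipoxygenases were scarce, with 0 to 23 reads of Alox12b and 1 to 90 reads of Aloxe3 in a library. Lipk, Lipn, and Pnpla1 had at most 34, 45, and 22 reads, and Sdr9c7, which acts on the same lipids, 5 to 111 reads. Calml5, a calcium-binding protein of late keratinocytes, gave 29.9, 8.33, and 231 CPM in the control, 0.2497, 44.8, and 41.4 in d-SMG, 63.04, 102, and 113 in s-GAG, and 26.1, 46.9, and 366 in Alg, highest in Alg on day 14.

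On day 3 the barrier genes were lower than the control in d-SMG and mostly above it in s-GAG and Alg. The 3 comparisons of a day share the control library and are not independent. In d-SMG, 24 members reached the minimum of reads, 24 were lower than in the control, and 21 were at least 4-fold lower, and 0 higher, beside 7.07% lower and 2.57% higher of all 15846 genes. The median log2 fold change was -6.01, or -4.50 with 0 reads set to a floor of 3 reads, and 0.0040 over all genes. Only 214 reads of all members were left in this library, 143 of them from Sbsn, and 21 members had any read. Sbsn was 21.8-fold lower, with a log2 fold change of -4.44 (interval -4.69 to -4.21). Intervals here and below are exact 95% Clopper-Pearson intervals on the reads of the 2 libraries and cover the counting error only. Elovl4 (13 against 4423 reads) changed by -7.43 (interval -8.35 to -6.67) on the log2 scale. Tgm3 had 0 against 340 reads, which is at least 57.9-fold lower against the floor. Ivl stood at -7.59 (interval -13.01 to -5.21) on the same scale, with 1 read against 407. The smallest differences were those of Tgm1, at -0.79 (interval -1.64 to -0.01), and of Sdr9c7, at -0.03 (interval -1.93 to 1.65). With genes taken by at least 200 reads over all 12 libraries instead, 22 of 27 members were at least 4-fold lower and 1 (Crnn, with 1 against 0 reads) was higher on the fitted scale. The same library had the fewest basal keratin reads and the highest sum of muscle markers, and the part of the tissue make-up in these values was not tested.

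Scaling each library to 8 basal keratinocyte markers moves all of its genes by the same amount, so that the members are read against all genes under the same scale. In d-SMG on day 3 the median of all genes moved to 1.93, and 17 members were 4-fold lower and 0 higher, beside 3.13% lower and 46.1% higher of all genes. In this library 94.9% of the reads of the basal markers were of Dst, which muscle also expresses, beside 0.334 to 22.9% in the other libraries. With Dst left out, a choice made after seeing the data, the scale rested on 910 reads and the median of all genes moved to 6.11. Then 5 members were 4-fold lower and 7 higher, beside 1.63% lower and 97% higher of all genes, and the median of the members was -0.018.

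In s-GAG on day 3, 30 of 31 members were higher than in the control and 9 were at least 4-fold higher and 0 lower (beside 4.69% higher and 2.49% lower of 16426 genes), with a median log2 fold change of 1.22. Crnn had 941 reads against 0, at least 418-fold higher. Rptn was 21.2-fold higher, a log2 fold change of 4.39 (interval 3.65 to 5.26). Sprr1a changed by 3.55 (interval 3.11 to 4.03) and Flg by 2.96 (interval 2.61 to 3.34), while Loricrin stood at 0.18 (interval -0.18 to 0.54). The 4 fused type genes and relatives had the largest median of the role groups, 3.68. In Alg on day 3, 20 of 30 members were higher and 5 were at least 4-fold higher and 0 lower (beside 3.12% higher and 2.37% lower of 16487 genes), with a median of 0.52. The 5 were Crnn (260 against 0 reads, at least 101-fold higher), Rptn, Flg, Lipm, and Sprr1b (9 against 2 reads, 2.30, interval 0.11 to 5.64). Rptn changed by 3.26 (interval 2.50 to 4.15), and Loricrin lay on the other side, at -1.69 (interval -2.24 to -1.17). The hair follicle list stood at 10853 CPM in this s-GAG library and at 3197 CPM in Alg, beside 34.00 CPM in the control, and its part in these values was not tested. Scaled to the basal markers, 4 members were 4-fold higher and 0 lower in s-GAG (beside 2.07% and 11% of all genes), and 2 were higher and 2 lower in Alg (beside 1.56% and 6%).

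On day 7 nearly all barrier genes that reached the minimum of reads were higher in the dressed wounds than in the control, whose library held the fewest barrier reads after d-SMG on day 3. In s-GAG all 33 members that reached the minimum were higher and 20 were at least 4-fold higher, beside 5.97% of 16863 genes higher and 3.69% lower. The median log2 fold change was 2.34. Sprr1a (1738 against 11 reads) changed by 5.88 (interval 5.05 to 6.90) and Crnn (1569 against 4 reads) by 7.17 (interval 5.84 to 9.08). Ivl was 22.3-fold higher, at 4.47 (interval 4.03 to 4.96), and Calml5 12.2-fold higher. Lce1l had 21 reads against 0, at least 2.63-fold higher. Of the crosslinking enzymes, Tgm3 was 4.26-fold higher, while Tgm1 stood at 0.42 (interval 0.14 to 0.72). With genes taken by their total of at least 200 reads, 16 of 27 members were 4-fold higher, beside 4.41% of 14398 genes.

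In Alg on day 7, 25 of 26 members were higher and 13 at least 4-fold higher (beside 3.08% higher and 2.8% lower of 15874 genes), with a median of 2.04. Lipm (723 against 64 reads) changed by 3.46 (interval 3.10 to 3.86) and Tgm3 by 2.69 (interval 2.28 to 3.12). The exception was Tgm1, at -1.05 (interval -1.51 to -0.61). In d-SMG on day 7, 21 of 25 members were higher and 6 at least 4-fold higher (beside 2.12% higher and 1.96% lower of 16164 genes), with a median of 1.19. The 6 were Crnn (479 against 4 reads, log2 fold change 6.37, interval 5.04 to 8.28), Sprr1a (4.86, interval 4.01 to 5.88), Krtdap (2.55, interval 2.21 to 2.91), Calml5 (2.43, interval 2.15 to 2.71), Kprp (20 against 1 read, 3.70, interval 1.18 to 9.19), and Cnfn (19 against 1 read, 3.62, interval 1.09 to 9.12). All 6 were past 4-fold in s-GAG and Alg on day 7 too, but the 3 comparisons share the control library. That library had 1 read of Kprp, 1 of Cnfn, 4 of Crnn, and 11 of Sprr1a, so the overlap is not independent support. The share of all genes past 4-fold in all 3 comparisons was not counted. The 3 dressed libraries held more basal keratin than the control of that day. Scaled to the basal markers, 7 members were 4-fold higher and 0 lower in s-GAG (beside 2.36% and 25.2% of all genes), 1 was higher and 1 lower in Alg (beside 0.573% and 24.6%), and 4 were higher and 0 lower in d-SMG (beside 1.35% and 4.11%).

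**Figure D3:**
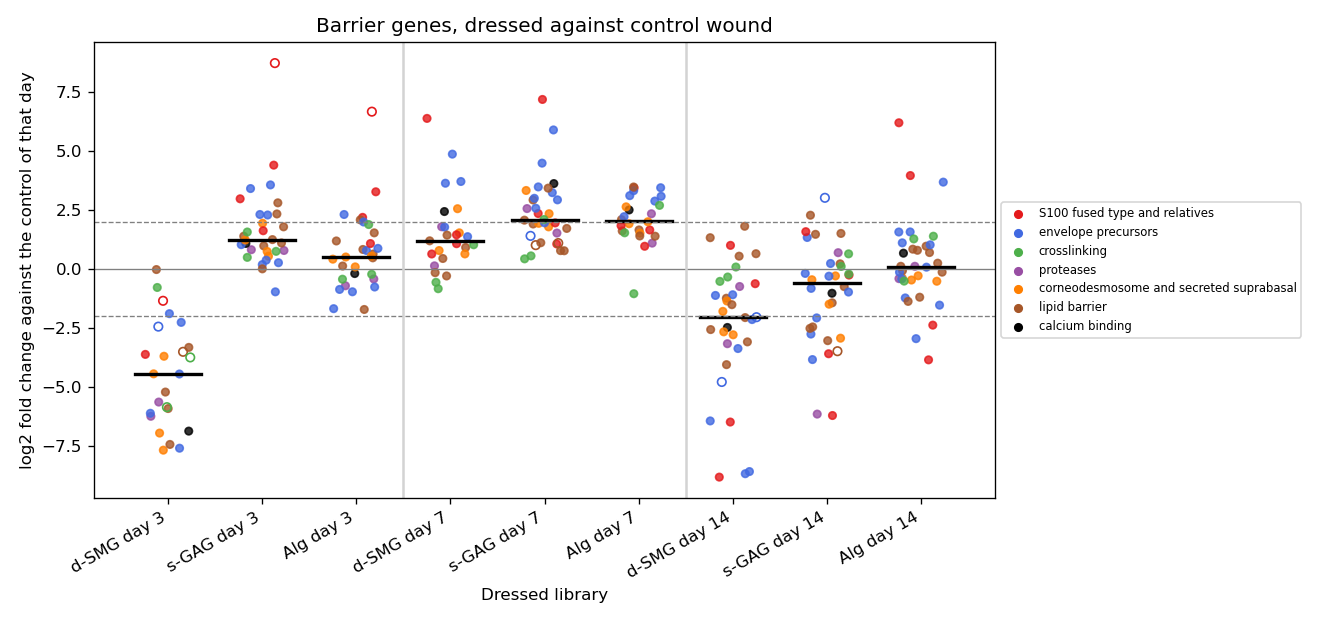
log2 fold change of each member with at least 10 reads in the 2 libraries, for each dressed library against the control of the same day. Points are genes, coloured by role. Open points had 0 reads in 1 library and stand at the bound for 3 reads, bars are medians with those points at the bound, and dashed lines mark 4-fold. The medians are -4.50 in d-SMG on day 3, 2.09 in s-GAG on day 7, and -2.05 in d-SMG on day 14.

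On day 14 most barrier genes were lower than the control in d-SMG and s-GAG, and in Alg they were split. The control library of that day held 78556 barrier reads, the highest share of the 12 libraries at 0.389% of its reads. In d-SMG, 27 of 33 members were lower than in the control and 17 were at least 4-fold lower and 0 higher (beside 5.61% lower and 3.21% higher of 16395 genes), with a median log2 fold change of -2.06. Flg2 (4 against 2386 reads) was 462-fold lower, a log2 fold change of -8.82 (interval -10.73 to -7.49). Loricrin (3 against 1633 reads) changed by -8.67 (interval -11.00 to -7.17) and Lce1m (1 against 545 reads) by -8.58 (interval -14.03 to -6.24). Lce1l had 0 against 107 reads, at least 27.6-fold lower. Flg was 89.7-fold lower. The 6 members that were not lower were Elovl4 (1.80, interval 1.75 to 1.85), Cers3, Rptn, Abca12, Lipm, and Tgm3, and the lipid group held 4 of them. Among the 27 members with at least 200 reads in total, 11 were 4-fold lower and 0 higher, beside 4.4% lower and 2.6% higher of 14398 genes.

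In s-GAG on day 14, 23 of 34 members were lower and 11 were at least 4-fold lower, but this library also had 15.1% of all 16517 genes 4-fold lower and 10.5% higher, and the members' share is to be read against that. Among the 27 members with at least 200 reads in total, 7 were 4-fold lower and 1 higher, beside 14.3% lower and 9.2% higher of all genes. The median of the 34 was -0.61. Flg2 changed by -6.21 (interval -6.86 to -5.64), Casp14 by -6.15 (interval -7.49 to -5.12), and Flg by -3.59 (interval -3.75 to -3.44). Lipm (1923 against 534 reads), at 2.27 (interval 2.13 to 2.41), and Sprr1b (18 against 0 reads, at least 8.04-fold higher) were the 2 members past 4-fold in the other direction. Whether the low share of long genes in this library had a part in these values was not tested.

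In Alg on day 14, 18 of 35 members were higher and 17 lower, the median was 0.07, and 3 were past 4-fold in each direction (beside 4.34% lower and 3.3% higher of 16326 genes). Lower were Flg2 at -3.85 (interval -4.12 to -3.60), Lce1m at -2.95 (interval -3.39 to -2.55), and Flg at -2.38 (interval -2.49 to -2.28). Higher were Rptn, 72.9-fold at 6.18 (interval 5.76 to 6.65), Crnn, 15.4-fold at 3.95 (interval 3.81 to 4.09), and Sprr2d (11 against 1 read, 3.67, interval 1.06 to 9.27). Sprr2d is counted by the rule, but nothing is read from its difference, as said above. In Flg and Flg2 all 3 dressed libraries of day 14 were past 4-fold lower. Casp14 (0.11, interval -0.06 to 0.27), Kprp (-0.14, interval -0.38 to 0.10), and Ivl (0.07, interval 0.00 to 0.14) did not differ by 4-fold between Alg and the control. Scaled to the basal markers, 24 members were 4-fold lower and 0 higher in d-SMG on day 14 (beside 23% and 0.86% of all genes), 24 were lower and 1 higher in s-GAG (beside 55.3% and 1.38%), and 7 were lower and 3 higher in Alg (beside 10.9% and 1.7%).

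Relative to the basal keratins, the control of day 14 held more barrier RNA than any other library. All members together gave 654, 541, and 3809 CPM in the control, 17.8, 797, and 1880.0 in d-SMG, 1591, 2071, and 2618 in s-GAG, and 878, 1829, and 3402 in Alg on day 3, 7, and 14. For every 1000 reads of Krt5 and Krt14 there were 153, 157, and 1011 barrier reads in the control, 593, 114, and 127 in d-SMG, 192, 168, and 93.6 in s-GAG, and 118, 154, and 308 in Alg. The 3 dressed libraries of day 14 had 93.6 to 308. Without Sbsn, the ratio on day 14 was 553 in the control, 81.3 in d-SMG, 48.7 in s-GAG, and 199 in Alg. Krt5 and Krt14 themselves were lower in the control of day 14 (3767 CPM) than in the dressed libraries of that day (11055 to 27968 CPM). Of the other basal markers on day 14, Lamb3 was also lower in the control. Dst was higher in the control (1409 CPM) than in the dressed libraries (107.7 to 935.6 CPM). Col17a1, Itga6, and Itgb4 were below the control in s-GAG and above it in d-SMG and Alg. Krt15 was below the control only in Alg. The 8 basal markers together summed to 7235 CPM in the control and to 13714 to 32260 CPM in the dressed libraries. The 3 wound-activated keratins found (Krt6a, Krt16, and Krt17) summed to 694 CPM in the control of day 14. On that day they summed to 2774 CPM in d-SMG, 7668 in s-GAG, and 2260 in Alg. Whether wound-activated or hair follicle keratinocytes had a part in these ratios was not tested. The d-SMG ratio on day 3 rests on 361 keratin reads.

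**Figure D4:**
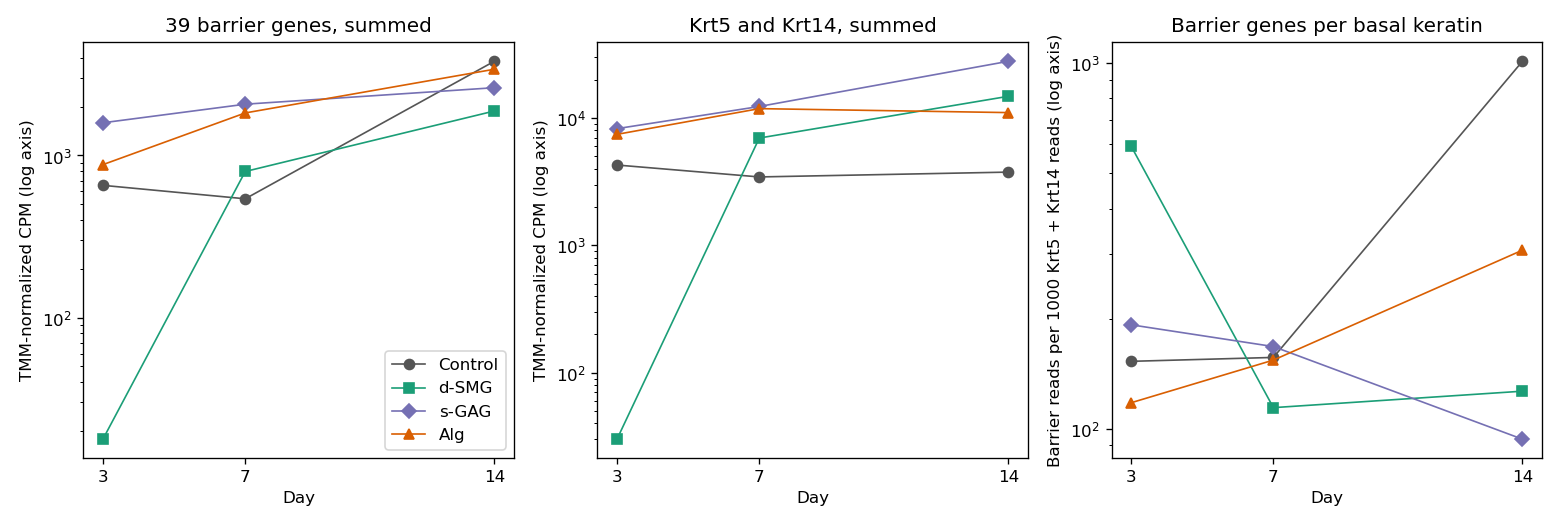
Summed CPM of the 39 genes, summed CPM of Krt5 and Krt14, and barrier reads per 1000 Krt5 and Krt14 reads against the day (log axes, 1 point for each library). The barrier sum of the control is highest on day 14 at 3809 CPM, while its basal keratin sum stays between 3452 and 4283 CPM and its ratio reaches 1011.

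Between day 3 and day 14 the barrier genes were higher on the later day in the control, d-SMG, and Alg, and less so in s-GAG. In the control 26 of 33 members were 4-fold or more higher on day 14 and 0 lower (beside 5.08% higher and 2.75% lower of 16566 genes), with a median log2 fold change of 2.95, and Flg2 (2386 against 6 reads) changed by 8.79 (interval 7.70 to 10.27). Crnn had 439 reads against 0, at least 167-fold higher. Tgm3 stood at -0.18 (interval -0.42 to 0.06) and Elovl4 at 0.16 (interval 0.10 to 0.22). In Alg 23 of 35 members were 4-fold higher and 0 lower (beside 1.95% higher and 2.33% lower of 16217 genes), with a median of 2.60, Crnn at 4.68 (interval 4.50 to 4.86), and Rptn at 4.65 (interval 4.40 to 4.93). In d-SMG all 22 members that reached the minimum were 4-fold higher and 0 lower (beside 10.2% higher and 6.9% lower of 15792 genes), but the day 3 library held 214 barrier reads, and most of the 22 had under 10 reads in it and reached the minimum only through day 14. Among the 27 members with at least 200 reads in total, 24 were 4-fold higher and 1 lower, beside 9.44% higher and 5.98% lower of all genes. Scaled to the basal markers without Dst, 4 of the 22 were higher and 8 lower, beside 2.58% and 96.3% of all genes. In s-GAG 5 of 31 members were 4-fold higher (beside 5.8% of 16253 genes), namely Lce1m, Lce1l, Sprr1b, Asprv1, and Krtdap. Casp14 was 4-fold lower (beside 11%), at -4.05 (interval -5.42 to -2.99). Scaled to the library size 1 member was higher and 2 lower (beside 2.18% and 17.4% of all genes), and scaled to the basal markers 0 were higher and 8 lower (beside 0.572% and 39.1%).

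Over the 3 days, with the day as a block in the quasi-likelihood test of edgeR on 16110 genes, none of the 33 members tested passed a Benjamini-Hochberg FDR of 0.05 for any dressing (0% of all genes did). In this model the days stand in for replicates, so that the test reads a difference between the days in the effect of a dressing as error. Values marked SE here and below are the size of the log2 change divided by the square root of the test's F statistic. They are not standard errors given by the fit. At an unadjusted p under 0.05, 2 members were lower and 0 higher in d-SMG (beside 0.565% lower and 0.788% higher of all genes), 4 were higher and 0 lower in s-GAG (beside 5.57% higher and 3.69% lower), and 3 were higher and 0 lower in Alg (beside 2.22% higher and 0.894% lower). In d-SMG these were Lce1m, with a log2 change of -5.64 ± 1.37 (SE) (lower on 3 of 3 days, edgeR adjusted p = 1), and Loricrin, with -4.11 ± 1.56 (SE) (lower on 2 of 3 days, edgeR adjusted p = 1). For Lce1m, day 7 had 3 reads in d-SMG and 3 in the control (0.143 against 0.203 CPM). That pair was below the minimum of reads for a fold change, and no fall is read from it. The reads of Lce1m were 0 against 32 on day 3 and 1 against 545 on day 14. By the Wald test of DESeq2, Lce1m was called in d-SMG and no member in s-GAG or Alg. The share of all genes called by DESeq2 is not given here, so this call is not set against a background. In s-GAG they were Lipm (2.79 ± 0.97 SE, higher on 3 of 3 days, edgeR adjusted p = 0.494), Crnn (5.75 ± 2.38 SE, higher on 2 of 3 days), Cnfn (1.96 ± 0.82 SE), and Abca12 (2.04 ± 0.90 SE). In Alg they were Rptn (4.25 ± 1.59 SE), Crnn (4.45 ± 1.98 SE), and Lipm (2.16 ± 0.96 SE), each higher on 3 of 3 days. Flg2 had the smallest p of the lower members in s-GAG (-2.15 ± 1.91 SE) and in Alg (-2.25 ± 1.71 SE), with edgeR adjusted p-values of 0.689 and 1.

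Between the days, with the treatment as a block, the lead of day 14 over day 3 took in more barrier genes at an unadjusted p under 0.05 than any dressing did. None of the 33 members passed the FDR (0% of all genes), but 21 were higher on day 14 than on day 3 at an unadjusted p under 0.05 and 0 lower, beside 3.08% of all genes higher and 1.87% lower. The 3 with the smallest p were Cnfn (2.64 ± 0.72 SE), Asprv1 (2.96 ± 0.82 SE), and Lce1m (3.23 ± 0.93 SE), each with an edgeR adjusted p of 0.882. Those not past this p included Elovl4 (1.09 ± 1.30 SE), Tgm3 (0.96 ± 0.99 SE), Flg (2.83 ± 1.36 SE), and Rptn (2.27 ± 1.42 SE). DESeq2 called Asprv1. Between day 14 and day 7, 5 members were higher and 0 lower at an unadjusted p under 0.05 (beside 1.6% higher and 1.51% lower of all genes), namely Ivl (3.19 ± 1.08 SE), Lce1m, Asprv1, Cnfn, and Lce1l, while 0 passed between day 7 and day 3 (beside 1.04% higher and 0.77% lower), where Krtdap had the smallest p (2.22 ± 1.04 SE, edgeR adjusted p = 0.999). DESeq2 called no member in these 2 comparisons.

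Among the other genes of terminal differentiation, the desquamation and junction genes held most of the 4-fold differences on day 3 in d-SMG and on day 7 in s-GAG. The list also held regulators and lipid enzymes. In d-SMG on day 3, 27 of 53 tested were at least 4-fold lower and 0 higher (beside 7.07% and 2.57% of all genes). They were 9 of 10 desquamation genes, 8 of 11 junction genes, 5 of 16 lipid genes, and 5 of 16 regulators. Spink5, the inhibitor of the skin kallikreins, had 10 against 3937 reads (log2 fold change -7.64), and Dsp, the desmosome plaque protein, 100 against 9033 (-5.53). In s-GAG on day 7, 26 of 55 were 4-fold higher and 0 lower (beside 5.97% and 3.69% of all genes), namely 9 of 11 desquamation genes, 11 of 12 junction genes, 1 of 16 lipid genes, and 5 of 16 regulators. The lipid gene was Nipal4, at 392 against 8 reads (4.19), and 6 of the 16 lipid genes were below the control. In Alg on day 7, 10 of 54 were 4-fold higher (beside 3.08% of all genes), 8 of them desquamation genes. There were 5 of 52 in d-SMG on day 7 (beside 2.12%), 13 of 55 in s-GAG on day 3 (beside 4.69%), and 3 of 55 in Alg on day 3 (beside 3.12%).

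On day 14, 2 of the 54 other differentiation genes tested in d-SMG were 4-fold lower and 1 higher (beside 5.61% and 3.21% of all genes). The lower were Klk10 (35 against 266 reads, log2 fold change -2.55) and Dsc1 (109 against 634, -2.17), and the higher was the gap junction gene Gjb2 (1029 against 107, 3.63). The median over the 54 was 0.25, and the difference from the barrier genes was not tested. In s-GAG on day 14, 5 of 55 were 4-fold lower and 8 higher, from Sptlc3 (-4.53) to Gjb2 (4.14), beside 15.1% lower and 10.5% higher of all genes. In Alg on day 14, 0 of 55 were lower and 3 higher (beside 4.34% and 3.3%), the connexins Gjb2 (3.83) and Gjb6 (2.72) among them. Gjb2 was higher than the control in 8 of the 9 dressed libraries, and lower in d-SMG on day 3. Over the days, 0 of the 55 tested passed the FDR of edgeR for any dressing. At an unadjusted p under 0.05 there were 0 in d-SMG, 12 higher and 1 lower in s-GAG (beside 5.57% and 3.69% of all genes), and 1 higher in Alg (beside 2.22%).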

How the data were processed

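The deposited count table holds raw reads per gene, and the deposited FPKM table holds values scaled to gene length and depth by the authors, rounded to 2 decimals. Both come from stranded, rRNA-depleted libraries of total RNA with paired reads of 150 bases. The submitters' notes name bcl2fastq, FastQC, TopHat2, and edgeR. The genome build, annotation, counter, and handling of multi-mapped reads were not given in the sources used here, so reads of near-identical LCE and SPRR genes may be split. Each table has 1 further value column that matches no described sample and was not used.

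Counts were normalized by TMM in edgeR 4.0.16 (limma 3.58.1, R 4.3.3). For 1 library against 1, log2 fold changes used a prior count of 0.125 and at least 10 reads in the 2 libraries, and 4-fold was the threshold. With 1 library for each treatment and day, no p-value on a single day is reported, and an exact test at an assumed biological coefficient of variation of 0.3 served only as an alternative for the counts of members. Folds against 0 reads are bounds at a floor of 3 reads, and 95% intervals are exact Clopper-Pearson intervals. Intervals and floors cover counting error only. Over the days, the edgeR quasi-likelihood test with the day as a block (the treatment, between days) was fitted to 16110 genes with Benjamini-Hochberg adjustment at an FDR of 0.05, and the libraries of different days stood in for replicates. The sources used here do not tie the libraries to animals, so p-values measure the spread between libraries, which may be technical. DESeq2 1.42.0 was an alternative, with other scalings, filters, pseudocounts, and libraries left out. Scripts were tested on simulated data. Tables and plots were made with Python 3.11.15, pandas 2.3.3, and matplotlib 3.10.9.

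The members and gene lists were chosen with earlier results of these data known. Members named in a comparison were taken from representatives of each role, the 3 largest differences in each direction (the library with more reads holding 20 or more) (the 3 smallest p-values over days), and those past 4-fold against the majority. Other differentiation genes were named as the largest differences with at least 100 reads.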

Additional observations from a re-analysis of the deposited data

Results flagged for a closer look

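In 9 of the 25 members that reached the minimum of reads in all 6 comparisons of day 7 and 14, all 3 dressed libraries were above the control on day 7 and all 3 below it on day 14. The difference between the days was not tested, and the control of each day is 1 library shared by the 3 dressings, so that 1 low control on day 7 or 1 high control on day 14 moves all 3 together. The share of all genes with this pattern was not counted, so the 9 are not read as a trait of the barrier genes. The median log2 fold change over the 3 dressings was 1.65 on day 7 and -6.21 on day 14 for Flg2, 1.83 on day 7 and -3.59 on day 14 for Flg, 3.47 on day 7 and -3.84 on day 14 for Kprp, and 2.92 on day 7 and -2.08 on day 14 for Loricrin. In the secreted and corneodesmosome group it was 1.52 on day 7 and -2.79 on day 14 for Cdsn, 1.78 on day 7 and -1.50 on day 14 for Dmkn, 1.99 on day 7 and -0.52 on day 14 for Sbsn, and 2.62 on day 7 and -0.30 on day 14 for Krtdap. It was 1.65 on day 7 and -0.75 on day 14 for the lipoxygenase Aloxe3, on 9 to 90 reads. Kprp on day 7 rests on 1 control read. Between day 3 and day 7 (0 of 22 members) or day 14 (0 of 24 members) such a turn could hardly occur. On day 3 all 24 members tested in d-SMG were below the control, and 30 of 31 in s-GAG were above it. Nothing is read from these 0 counts.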

How the results depend on the processing

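With DESeq2's size factors, a prior count of 2, or 0 reads set to 3, every count of members past 4-fold stayed within 1.5 times. The counts that moved are given here, and the cause was not tested unless the setting itself lets in or removes genes. Without a minimum of reads there were 32 (d-SMG, day 3, in place of 21), 9 (Alg, day 3, in place of 5), 13 (d-SMG, day 7, in place of 6), 21 (Alg, day 7, in place of 13), and 10 (Alg, day 14, in place of 6). With at least 50 reads there were 13 (s-GAG, day 7, in place of 20), 11 (d-SMG, day 14, in place of 17), 8 (s-GAG, day 14, in place of 13), and 15 (Alg, day 14 against day 3, in place of 23). At 2-fold there were 19 (s-GAG) and 12 (Alg) on day 3, 15 (d-SMG) and 25 (Alg) on day 7, 20 (s-GAG) and 16 (Alg) on day 14, and 16 (s-GAG, day 14 against day 3). On FPKM + 1, which compresses scarce genes, there were 8, 5, and 1 on day 3 (d-SMG, s-GAG, Alg), 8 and 4 on day 7 (s-GAG, Alg), 10 and 6 on day 14 (d-SMG, s-GAG), and 16, 2, and 11 for day 14 against day 3 (control, s-GAG, Alg), and on FPKM + 0.1 13 (s-GAG, day 7) and 3 (s-GAG, day 14 against day 3). By library size the last was also 3. The exact test at an assumed biological coefficient of variation of 0.3 gave 3 (Alg, day 3), 12 and 7 (s-GAG and Alg, day 7), and 14 (Alg, day 14 against day 3). Scaled to the basal markers there were 4 (s-GAG, day 3), 7 and 2 (s-GAG and Alg, day 7), and 25 and 10 (s-GAG and Alg, day 14). With Dst left out of these markers, a setting chosen after seeing the data, there were 12 and 5 on day 3 (d-SMG, s-GAG), 6 and 1 on day 7 (s-GAG, Alg), 26, 27, and 10 on day 14 (d-SMG, s-GAG, Alg), and 12 (d-SMG, day 14 against day 3). The log2 fold changes that reversed under it were, in d-SMG on day 3, Lce1l at 3.74, Sprr1a at 1.55, Flg at 2.45, Casp14 at 0.36, Cdsn at 2.39, Aloxe3 at 2.67, Abca12 at 0.082, and Lipm at 0.83, and in s-GAG on day 14 Lipm at -0.19. Over the days, the edgeR calls of members were 0. Leaving out each day or treatment in turn gave 0 to 0 calls, and so did the fit with no replicate block, without the d-SMG library of day 3, and without the control of day 14, the last 2 chosen after seeing the data. Unadjusted p under 0.05 gave 2, 4, and 3 (d-SMG, s-GAG, Alg), 21 (day 14 against day 3), and 5 (day 14 against day 7). DESeq2 called 1 member in d-SMG (Lce1m) and 1 for day 14 against day 3 (Asprv1). Scaled to the basal markers, edgeR called 1 in d-SMG (Lce1m) and 1 in s-GAG (Crnn). For these calls of DESeq2 and of the basal scaling, the share of all genes called is not given here. The depth limits what can be said of 12 members with under 200 reads in all libraries together, and of the d-SMG library of day 3, where a count of 0 allows up to 0.250 CPM.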
